A study of Mus musculus with 11 samples.

Results

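The regions described here are the mouse olfactory receptor genes outside chromosome 2 and outside the class I interval of chromosome 7. They were taken from a table of lamin B1 DamID scores as the rows whose symbol is Olfr followed by a digit, leaving out chromosome 2 and the class I interval, whose rows span chr7:102474773-105371317 (mm10). This gave 704 of the 21534 gene regions, out of 1116 olfactory receptor rows in all, with 288 of the others on chromosome 2 and 124 in the class I interval. The class II name rests on position alone, since no receptor protein sequence was used here. In DamID the bacterial methylase Dam is fused to a protein of interest and marks nearby DNA by methylating adenine in GATC, so Dam-LMNB1 marks DNA close to lamin B1 at the inner nuclear membrane. The cells were wild-type (WT in the titles) oligodendrocyte precursors (OPCs) taken from the cortex of C57BL/6 mice at postnatal day 7 and given lentivirus for 1 day, which carried either Dam-LMNB1 or Dam alone as the control. The OPC group then spent 72 h in proliferation medium (PF) and the oligodendrocyte (OL) group 72 h in differentiation medium (T3), and the cell type label of both is primary OPCs. The table holds 3 Dam-LMNB1 libraries per condition, OPC 8, 9 and 10 and OL 18, 19 and 20, each scored by the authors against the pooled Dam libraries of its condition (2 in OPC, 3 in OL). The promoter of the lentiviral transgene and the differentiation state reached are not given in the sources used here, and DamID scores cannot check cell identity markers.

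Olfactory receptors are G protein-coupled receptors encoded by one of the largest gene families of mammals, arranged in clusters over most chromosomes. Class I receptors resemble those of fish and sit together on chromosome 7, whereas class II receptors are spread over many clusters. An olfactory sensory neuron expresses a single allele of a single receptor gene and keeps the others in compact heterochromatin. In most other cell types most of the family is silent. DNA at the nuclear lamina lies in lamina-associated domains, which are mostly gene-poor, AT-rich and little transcribed.

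The 704 regions came from 17 chromosomes and fell into 46 clusters when a gap over 1 Mb started a new one. Clusters are named here by chromosome and by a letter in order along it, so that 9B is the second on chromosome 9. Each region is a gene with its flanks. In 93.8% of the members it began within 100 bp of a point 10 kb before the RefSeq gene, and in 97.1% it ended within 100 bp of a point 2 kb after it. The median receptor gene was 0.95 kb and the median member region 12.9 kb, so most of a value comes from flanking DNA, and exons, introns and UTRs share it. Of the members, 243 (34.5%) overlapped another member and share reads with it. RefSeq (GRCm38.p6) had a gene of the symbol for 700 members, 689 of them protein-coding. Of these rows, 2 lay away from their RefSeq gene. The row named Olfr1000 on chromosome 5 covers Odam, and a row named Olfr446 on chromosome 6 covers Olfr443-ps1 and Gm34905.

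The windows around the annotated start of the members at both ends of the score range are printed to show the sequence there. They are the RefSeq windows (GRCm38.p6) of 250 bases before to 50 after the annotated start, 5′ to 3′ on the gene's strand, with GATC, the site Dam methylates, in capitals. Olfr802 (chr10:129682688-129682987, minus strand) and Olfr203 (chr16:59302905-59303204, plus strand) had the highest mean scores of all members. Olfr71 (chr4:43706517-43706816, minus strand) and Olfr225 (chr11:59612716-59613015, plus strand) had the lowest.
Olfr802: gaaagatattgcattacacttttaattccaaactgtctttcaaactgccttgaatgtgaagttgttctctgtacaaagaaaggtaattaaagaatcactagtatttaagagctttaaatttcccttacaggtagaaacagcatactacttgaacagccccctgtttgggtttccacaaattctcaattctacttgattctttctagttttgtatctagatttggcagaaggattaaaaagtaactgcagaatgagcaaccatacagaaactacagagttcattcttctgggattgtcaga
Olfr203: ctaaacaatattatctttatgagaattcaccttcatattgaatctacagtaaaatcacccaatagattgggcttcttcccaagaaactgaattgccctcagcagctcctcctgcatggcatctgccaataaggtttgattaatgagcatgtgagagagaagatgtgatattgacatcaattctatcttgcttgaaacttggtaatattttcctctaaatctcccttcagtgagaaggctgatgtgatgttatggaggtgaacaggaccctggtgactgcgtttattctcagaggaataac
Olfr71: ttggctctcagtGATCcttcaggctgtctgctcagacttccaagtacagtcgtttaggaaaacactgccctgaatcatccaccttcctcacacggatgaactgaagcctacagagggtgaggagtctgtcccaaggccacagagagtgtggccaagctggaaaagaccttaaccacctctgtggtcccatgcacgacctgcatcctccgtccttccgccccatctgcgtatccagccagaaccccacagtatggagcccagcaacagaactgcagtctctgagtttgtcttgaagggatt
Olfr225: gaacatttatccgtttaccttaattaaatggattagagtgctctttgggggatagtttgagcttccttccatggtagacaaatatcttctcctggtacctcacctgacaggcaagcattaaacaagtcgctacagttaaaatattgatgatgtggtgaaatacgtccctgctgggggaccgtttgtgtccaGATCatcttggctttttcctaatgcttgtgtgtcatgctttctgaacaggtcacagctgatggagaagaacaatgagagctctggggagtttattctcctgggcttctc
The Olfr802 and Olfr203 windows hold 34.7% and 39.3% G and C bases and no GATC. Those of Olfr71 and Olfr225 hold 53.7% and 43.7% and 1 GATC each.

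A window was found for 585 members (587 windows). In 71.2% of them ATG stands exactly at the annotated start, as in the 4 printed, so most member windows are placed on the start codon of the gene model. They need not hold the transcription start, and the windows of all genes are not matched to them in this. Their median G and C content was 36.7%, against 52.7% over all 32817 windows of the same length in the table. No CpG occurred in 32.4% of the member windows and in 5.43% of all windows. The members with a mean score below 0 had a median G and C content of 47.8% (36 windows) and those above 0 one of 35.7% (551 windows). Among windows under 35% G and C, 245 in number, the median score was 2.16 and none belonged to a member below 0. From 35% to 40% the median was 1.97 with 2 of 166 below 0, and from 40% to 45% it was 1.496 with 10 of 100 below 0. At 45% or more it was 0.94 with 24 of 76 below 0. Over the 587 windows Pearson's r between G and C content and mean score was −0.57 and Spearman's rho −0.52. After centring on the cluster, over the 508 windows in clusters of 10 or more, r was −0.36. These are descriptions across genes, which share clusters and libraries and are not replicates.

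**Figure D1:**
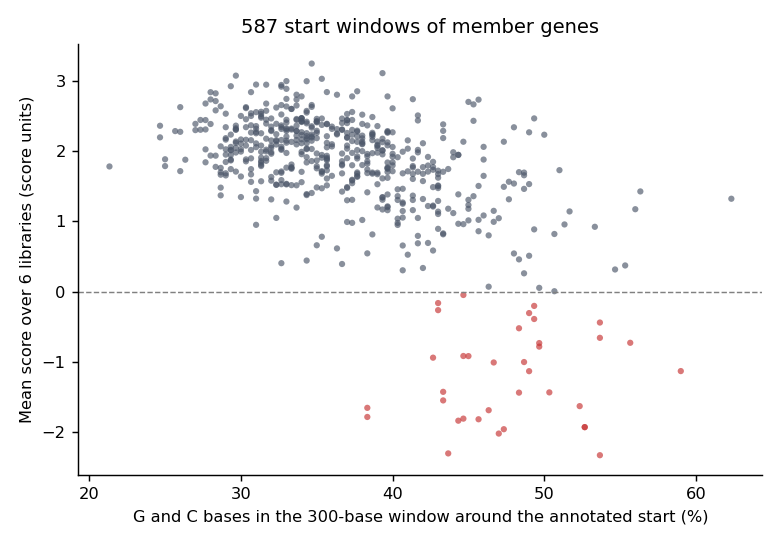
Share of G and C bases in the 300-base window around the annotated start (x axis, %) against the mean score over the 6 libraries (y axis, score units), with 1 point per window, red where the score is below 0. The 245 windows under 35% all lie above 0, while 24 of the 76 at 45% or more lie below 0.

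Short motifs were counted on both strands of the same windows. GATC occurred in 49.6% of the member windows and in 48.0% of all windows. Among members above 0 the share was 47.9% and among those below 0 it was 75%. The letters TAATTA, the core of homeodomain sites such as those bound by the receptor-choice factor Lhx2, occurred in 17.04% of the member windows and 5.30% of all windows. The core bound by early B-cell factors, searched as TCCC and GGGA with any 2 bases between, occurred in 0.852% and 0.905%. TAATTA cannot overlap a GATC, whereas the early B-cell factor core can share its first or last bases with one, and the windows differ in base composition as given above, so no share marks a bound site.

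Nearly all of these receptor genes lay above 0 in both conditions, on the side of more Dam-LMNB1 than Dam methylation. Of the 704 members, 658 had a mean score above 0 in OPC and 37 one below it (limma, adjusted p under 0.05 by Benjamini-Hochberg over all 21534 regions), where 25.5% and 71.4% of all regions did. In OL 656 lay above and 41 below 0, with 25.9% and 70.9% of all regions. The median member score was 1.999 in OPC and 1.889 in OL, and that of all regions −1.54 and −1.47. The p-values rest on the spread between libraries within the conditions, pooled over both conditions and drawn toward a trend over all regions. The 3 libraries of a condition share 1 pooled Dam denominator. The labels do not say whether the libraries are separate cultures or animals, so this spread may be technical.

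The 6 libraries gave nearly the same picture. For OPC libraries 8, 9 and 10 the median member score was 1.991, 2.008 and 1.997. For OL libraries 18, 19 and 20 it was 1.774, 1.943 and 1.927, so OL library 18 was the lowest. The share of members above 0 ran from 93.3% to 94.3%. In all 6 libraries 653 members lay above 0, where 24.8% of all regions did, and 36 lay below 0, where 70% did. The other 15 had scores of both signs. The median SD over 3 libraries was 0.11 in OPC and 0.13 in OL, against an SD of 0.92 over the mean scores of the members.

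Olfr802, in cluster 10B, had scores of 3.32, 3.29 and 3.28 in OPC and 3.24, 3.16 and 3.20 in OL. Olfr203, in 16D, had 3.14, 3.24 and 3.14 in OPC and 3.12, 3.08 and 2.97 in OL. For both genes the OL libraries lay just below the OPC libraries, without a call (limma adjusted p = 0.332 and 0.267). Olfr297, in 7C, had 2.98, 2.83 and 2.97 in OPC and 3.18, 3.21 and 3.29 in OL, a rise of 0.30 ± 0.08 (SE, limma adjusted p = 0.0189). The next highest were Olfr201, also in 16D, with a mean of 3.03, and Olfr810, also in 10B, with 3.02.

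At the other end, Olfr71 in 4A had −2.25, −2.35 and −2.66 in OPC and −2.06, −2.29 and −2.38 in OL. Olfr225 in 11D had −2.41, −2.39 and −2.24 in OPC and −2.40, −1.99 and −2.40 in OL. In both genes the libraries of the conditions overlapped. Olfr463, Olfr462 and Olfr222 followed, with means of −2.02, −1.96 and −1.93. Olfr462 and Olfr463 are neighbours in 11F, near the eosinophil peroxidase gene Epx, and their regions overlap. Olfr222 and Olfr225 flank Olfr223 near Nlrp3, which encodes an inflammasome sensor.

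**Figure D2:**
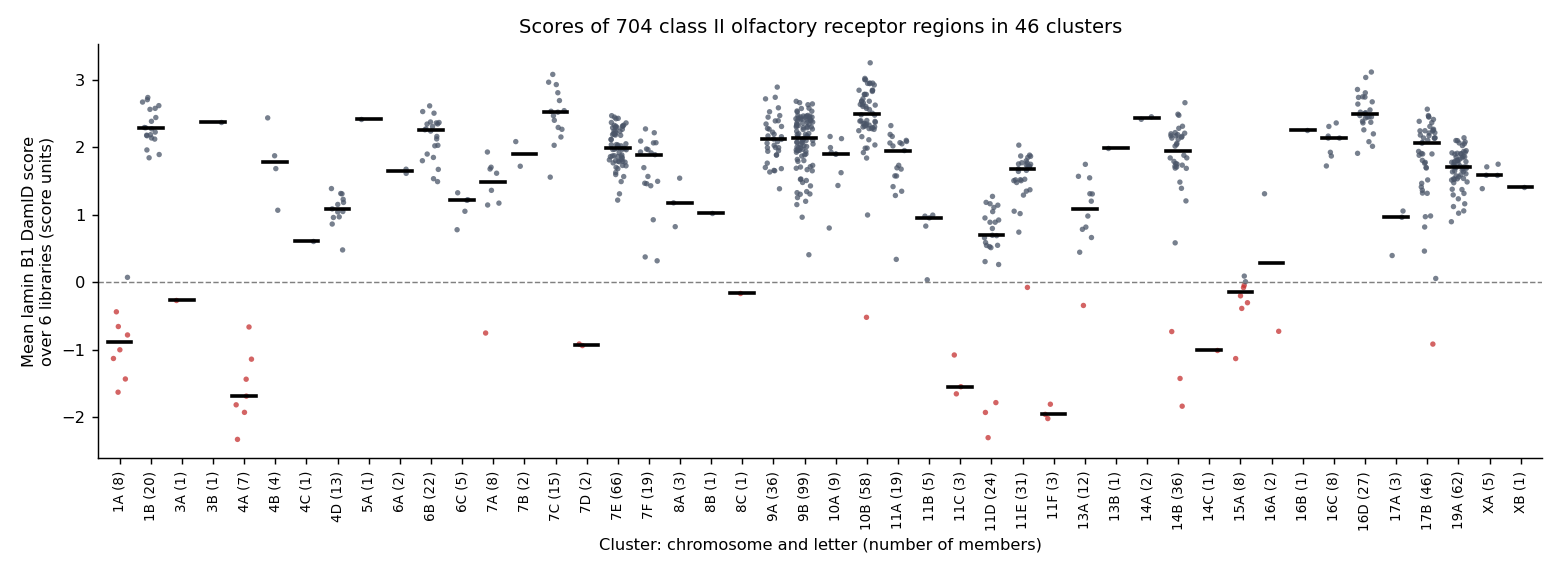
Mean score over the 6 libraries (y axis, score units) of each of the 704 members, by cluster (x axis, number of members in brackets), with the cluster median as a black bar and members below 0 in red. The medians of the large clusters lie above 0, though some of their members lie below it. Clusters 3A, 4A, 7D, 8C, 11C, 11F and 14C lie wholly below 0.

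The cluster accounted for most of the spread in level, with 71.3% of the sum of squares of the mean scores lying between clusters. In 29 of the 46 clusters every member had a mean score above 0. In 7 clusters, with 18 members, every member lay below 0, and 10 clusters were mixed. The 17 clusters of 10 or more members held 605 of the 704. Their median score in OPC ranged from 0.75 in 11D to 2.58 in 10B, and all 17 were above 0.

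The largest cluster, 9B (chr9:37709348-40190094), held 99 members, all above 0, from Olfr986 at 0.41 to Olfr894 at 2.68. Cluster 7E, on the distal side of the class I interval, ran from Olfr519 at 1.21 to Olfr483 at 2.47 over 66 members, and 19A from Olfr1419 at 0.89 to Olfr1450 at 2.14 over 62. In 10B the 58 members ran from Olfr9 at −0.52 to Olfr802 at 3.25. Cluster 10B thus held both the highest member of all and 1 member below 0. Members also spread widely in 14B (Olfr221 at −1.84 to Olfr734 at 2.66) and in 17B (Olfr94 at −0.92 to Olfr120 at 2.56).

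The others of this size were all above 0 except for a few members of 3 clusters. Cluster 1B ran from 1.84 to 2.74, 6B from 1.49 to 2.61 and 7C from 1.56 to 3.08. The members of 9A lay between 1.38 and 2.89, those of 16D between 1.91 and 3.11, those of 7F between 0.32 and 2.27 and those of 11A between 0.34 and 2.32. Cluster 4D was low and narrow, from 0.48 to 1.39. The clusters that crossed 0 were 11D, from −2.31 to 1.27, 11E, from −0.08 to 2.03, and 13A, from −0.35 to 1.75.

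Members of small clusters had lower scores. The median mean score was 1.21 for the 10 members that stood alone, 1.06 in clusters of 2 to 4 and 1.05 in clusters of 5 to 9. It was 2.02 both in clusters of 10 to 29 and in those of 30 or more. The share of members below 0 was 30%, 34.6% and 33.3% in the small classes and 2.34% and 1.38% in the large ones. Members of a cluster are not independent, and in clusters of 5 to 9, 4A, 1A and 15A gave 7, 7 and 6 of the 21 below 0. The classes also differed in position. Within 50 kb of a region that is no olfactory receptor lay 60%, 80.8% and 69.8% of the small classes and 44.4% and 20.7% of the large ones. Of the solitary members, the lowest was Olfr49 on chromosome 14 at −1.01, and the highest was the row named Olfr1000 at 2.41, which covers Odam.

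The minority below 0 numbered 43 members by mean score. Of these, 33 lay in clusters of under 10, which hold 99 members, and 10 in the larger clusters. In 4A (chromosome 4, 43.7 Mb) all 7 members lay below 0, with a median of −1.70 in OPC and −1.68 in OL. In 1A (chromosome 1, 92.5 Mb) 7 of 8 did, with −0.98 and −0.83. All 3 members of 11C and all 3 of 11F did, and both of 7D. The rest stood alone or in mixed clusters.

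These members sat beside other kinds of gene. Of the 43, 41 lay within 50 kb of a region that is no olfactory receptor, as did 237 of all 704, and for 42 the nearest such region was itself below 0. The median member score was 1.02 where the member overlapped such a region (43 members), 1.53 within 50 kb (194), 1.92 from 50 to 150 kb (197), 2.23 from 150 to 300 kb (141) and 2.06 beyond 300 kb (129). Members below 0 numbered 10, 31, 2, 0 and 0 in these classes. Members whose nearest non-receptor region was below 0 numbered 16, 76, 45, 22 and 19, so most of them were themselves above 0. Of the 92 members within 50 kb of a non-receptor region that was below 0, 40 were below 0 and the median was 0.33. Of the 145 within 50 kb of one above 0, 1 was below 0 and the median was 1.78. That 1 was Olfr94. Overlapping regions share reads, so these values are a description of position and not a test.

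Single members or short runs below 0 stood inside or at the end of clusters that were otherwise above it. In 11D the 3 members at 59568782-59616225, which are Olfr222, Olfr223 and Olfr225, had mean scores from −2.31 to −1.79, with Nlrp3 beside them at −1.91. The 21 other members of 11D, at 58452915-58844042, all lay between 0.26 and 1.27. With a gap of 0.5 Mb in place of 1 Mb these would be separate clusters. In 14B Olfr750 had −1.43 and overlapped the angiogenin gene Ang (−1.67), and Olfr221 had −1.84 near the zinc finger gene Zfp219 (−2.08). Olfr1513 had −0.73 near Sall2, a zinc finger factor gene, at −2.18. The 33 other members of 14B lay above 0. With the 0.5 Mb gap 14B would also split, into 28 members at 49892258-51081442 and 8, Olfr221 among them, at 52033174-52501046.

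**Figure D3:**
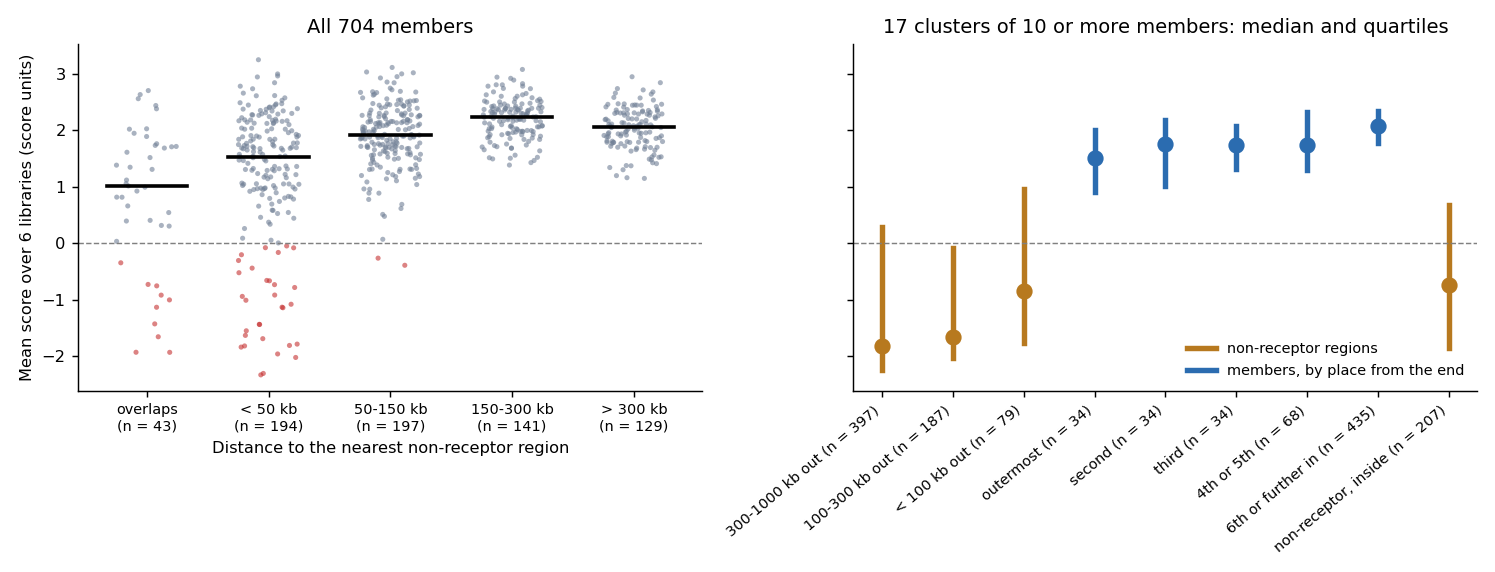
Mean score over the 6 libraries (y axis, score units): left, all 704 members by distance to the nearest non-receptor region, with the median as a bar and members below 0 in red. Right, the median (point) and quartiles (line) of members by place from the cluster end and of non-receptor regions outside and inside the 17 clusters of 10 or more. Members beyond 150 kb all lie above 0, and the score is higher from the sixth member inward than at the ends.

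The ends of the large clusters were lower than their inner parts. The outermost members of the 17 clusters of 10 or more had a median score of 1.51 (34 ends), the second 1.76, the third 1.74, the next pair 1.74, and those further in 2.08 (435 members). At 27 of the 34 ends the outermost member lay below the median of the inner members, with a median difference of −0.45. Outside, non-receptor regions had a median of −0.85 within 100 kb (79 regions), −1.67 from 100 to 300 kb (187) and −1.82 from 300 to 1000 kb (397). The 207 non-receptor regions inside the clusters had a median of −0.74, and 130 of them lay below 0.

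The flanking genes of the largest clusters differed from end to end. Beside 9B, the pannexin gene Panx3 had 0.28 in OPC and 0.41 in OL and the sodium channel subunit gene Scn3b −0.58 and −0.63. Beside 7E, Gvin1, an interferon-inducible GTPase gene, had 1.68 and 1.48 over 450 kb away, and Nlrp10 had −0.61 and −0.46 at 15.4 kb. Beside 19A, the mitochondrial ribosome gene Mrpl16 had −0.49 and −0.42, and Rnu6, 514.5 kb away, had −1.66 and −2.0. Cluster 10B ended near Neurod4, a neuronal transcription factor gene, at 2.09 and 2.0. Its other end lay near Mettl7b, which fell from 0.30 ± 0.23 to −1.31 ± 0.15 (SD, n = 3, limma adjusted p = 1.15e-04). The outermost receptor on that side, Olfr9, had −0.35, −0.23 and −0.26 in OPC and −0.75, −0.81 and −0.74 in OL. It fell by 0.49 on the score scale without overlap (limma adjusted p = 0.0015).

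Between the conditions most members were not called. Of the 704, 82 (11.6%) had a higher score in OL and 131 (18.6%) a lower one (limma, adjusted p under 0.05), and 491 were not called. Over all regions 23% were higher and 10.9% lower. The libraries of the conditions did not overlap for 271 members (38.5%), against 48.9% of all regions. A change over 0.5 among the called members was seen 17 times upward and 47 times downward. Over all 21534 regions such called changes numbered 1113 upward and 658 downward, as deposited. The median change was −0.05 over the members and 0.10 over all regions. With quantile normalization these medians were −0.02 and 0.01, and with the libraries brought to a common mean and SD they were −0.01 and 0.02. The share of calls that were higher moved with this scaling. It was 38.5% of the member calls as deposited, 45.9% with quantile normalization and 45.5% with a common mean and SD. Over all regions it was 67.9%, 50.5% and 50.5%. Without OPC library 9 or OL library 20, 54 and 50 members were higher. An alternative that takes the spread of each region from its own 6 scores alone called 4 higher and 5 lower. Under it Olfr11 and Olfr9 kept their calls, and the other members named here for a change did not.

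The calls were unevenly spread over the clusters, with 37.2% of the sum of squares of the change lying between clusters. Among the 17 clusters of 10 or more, the library medians did not overlap in 9. The libraries did not overlap for 48.9% of all single regions either, so this count alone does not set these clusters apart. The medians without overlap were lower in OL in 7E, 7F, 10B, 11E and 17B and higher in OL in 6B, 7C, 13A and 19A. In 10B the separation was slight, with 2.539 in OPC library 10 and 2.537 in OL library 19. In 6B and 7C they rose by only 0.092 and 0.096, near the median change of 0.097 over all regions. In 6B 12 members had a higher mean in OL and 10 a lower one. Neighbouring members share flanks and a domain, so their calls are not independent of each other.

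**Figure D4:**
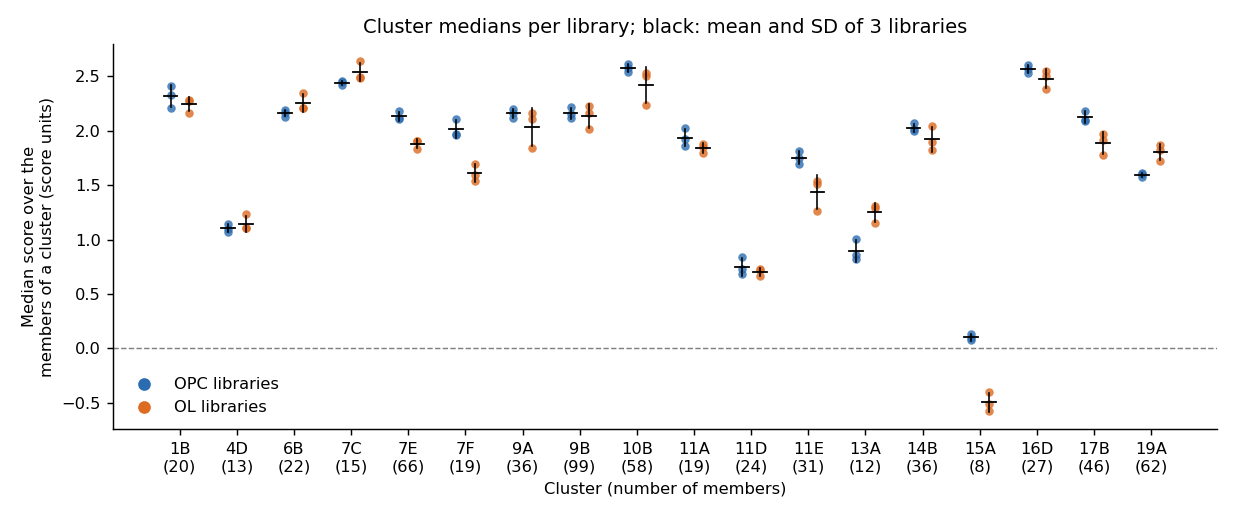
Median score over the members of a cluster (y axis, score units) in each OPC library (blue) and OL library (orange), with the mean and SD of 3 libraries in black, for the 17 clusters of 10 or more members and 15A (x axis, number of members in brackets). The OL points lie below the OPC points in 7E and 7F and above them in 13A and 19A, and in 15A they lie below 0.

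Cluster 7E had the most falls. In 7E (106.7 Mb) the median score was 2.13 ± 0.04 in OPC and 1.88 ± 0.04 in OL (SD of library medians, n = 3), with 30 of 66 members lower and 2 higher. In 7F (140.2 Mb) it was 2.01 ± 0.08 and 1.61 ± 0.08, with 12 of 19 lower and none higher. Over all regions 10.9% were lower and 23% higher as deposited. Under quantile normalization 22 members of 7E and 12 of 7F were lower, and so were 3278 of all 21534 regions. In 11E the median went from 1.75 to 1.44 with 15 of 31 members lower and 2 higher. Cluster 17B, beside the major histocompatibility complex, went from 2.13 to 1.89 with 12 of 46 lower and 2 higher, and 10B from 2.58 to 2.42 with 15 of 58 lower and 2 higher. OL library 18 was the lowest in 10B at 2.24, against 2.54 and 2.50 in the other 2. Without it 15 members of 10B were lower and 6 higher.

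In 19A and 13A every call was a rise. So were the 3 calls among the 13 members of 4D, the 4 among 22 of 6B and the 2 among 15 of 7C. These last 3 clusters do not stand out from the 23% of all regions that were higher. In 19A (11.8 Mb) the median was 1.598 ± 0.018 in OPC and 1.81 ± 0.08 in OL. There 18 of 62 members (29%) were higher, against 23% of all regions, and none lower. In 13A (21.1 Mb) the median was 0.90 ± 0.10 and 1.25 ± 0.09, with 10 of 12 higher and none lower. Cluster 13A is interspersed with 40 non-receptor regions, of which 37 lay below 0 (median −1.39). With quantile normalization 19 members of 19A and 8 of 13A were higher and none lower. Of all 21534 regions 3348 were then higher and 3278 lower. Without OL library 18, 22 members of 19A were higher and 1 lower. In 4D 2 were then higher and 2 lower, and in 7C 2 and 1, while 6B and 13A still had no falls. In the largest cluster, 9B, the medians were 2.16 and 2.14, with 15 higher and 9 lower, and the sign of its median change turned with the scaling, from −0.01 as deposited to 0.04 with quantile normalization.

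**Figure D5:**
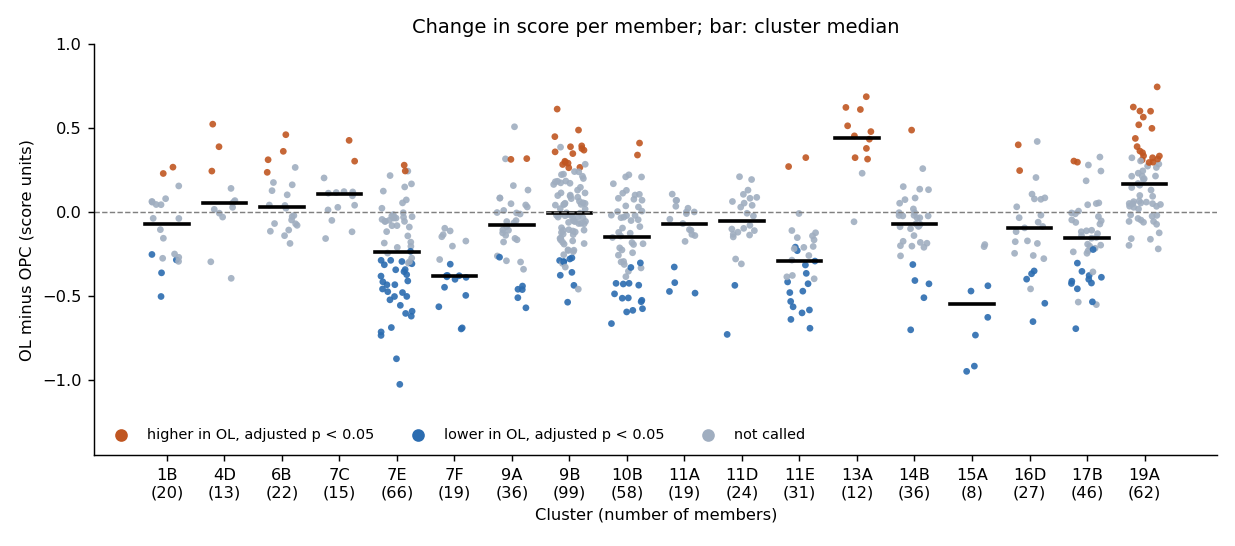
OL minus OPC score (y axis, score units) of each member in the 17 clusters of 10 or more and in 15A (x axis, number of members in brackets), coloured by the limma call at an adjusted p under 0.05, with the cluster median as a bar. Calls in 7F and 15A are all lower and those in 13A and 19A all higher.

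Among single members Olfr473, in 7E, had the largest fall over all 6 libraries, a rank that rests on OL library 18. Its scores were 2.38, 2.43 and 2.31 in OPC and 0.90, 1.51 and 1.63 in OL, a change of −1.03 ± 0.16 (SE, limma adjusted p = 0.00228). The conditions did not overlap, and OL library 18 was the lowest of all. Without that library the change was −0.80, smaller than those of Olfr282 (−0.98), Olfr287 (−0.93) and Olfr480 (−0.81). Olfr480, also in 7E, had 2.72, 2.85 and 2.72 in OPC and 1.76, 2.04 and 1.85 in OL, a change of −0.88 ± 0.09 (adjusted p = 4.20e-04). It stayed above 0 in all 6 libraries, as Olfr473 did. Olfr224 in 11D and Olfr744 in 14B fell by 0.73 and 0.70 without overlap, from 1.55 to 0.82 and from 2.10 to 1.40.

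The largest rise over all 6 libraries was that of Olfr1402, which stands alone on chromosome 3 (3A, chr3:97408217-97421179). Its scores were −0.84, −0.87 and −0.43 in OPC and 0.35, 0.20 and 0.00 in OL, a change of 0.90 ± 0.13 (limma adjusted p = 0.00154). It was called below 0 in OPC and was not called on either side in OL (adjusted p = 0.0751). Olfr11, in 13A, had 1.182, 1.204 and 1.288 in OPC and 1.88, 1.92 and 1.93 in OL, with an SE of 0.07 (limma adjusted p = 3.37e-04). Olfr1490 in 19A had 1.94, 1.28 and 1.37 in OPC and 2.27, 2.19 and 2.36 in OL. OPC library 8 was the highest of its condition there and still lay below all OL libraries. Without OPC library 8 the rise of Olfr1490 was 0.95 and that of Olfr1402 0.84, and with library weights both were 0.80, so their order is not fixed. The other large rises were 0.64 for Olfr63 (17A), 0.62 for Olfr1495 (19A) and 0.62 for Olfr1368 (13A), each without overlap.

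Among clusters of more than 1 member, the median crossed 0 between conditions in 15A (chr15:98204971-98500406). It is interspersed with 3 non-receptor regions, of the testis linker histone gene H1fnt, the zinc finger gene Zfp641 and the milk protein gene Lalba, all below 0. The median of its members went from 0.10 ± 0.03 in OPC to −0.50 ± 0.09 in OL (n = 3). All 8 members had a lower mean in OL and 6 were called lower, where 10.9% of all regions were. Of the 7 members of all 704 whose condition means lay on opposite sides of 0, 1 moved up and 6 moved down. Such crossings were not counted over all regions, so these counts do not set the members apart. The called ones were Olfr1402, upward, and Olfr281, Olfr282, Olfr286 and Olfr287 of 15A, downward.

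Olfr282 had 0.57, 0.28 and 0.60 in OPC and −0.40, −0.34 and −0.66 in OL, a change of −0.95 ± 0.11 (limma adjusted p = 6.82e-04). Olfr287 had 0.31, 0.07 and 0.08 in OPC and −0.74, −0.77 and −0.79 in OL, a change of −0.92 ± 0.08 (adjusted p = 2.32e-04). For both, every OPC library lay above 0 and every OL library below. Olfr286 had 0.60, 0.13 and 0.24 in OPC and −0.62, −0.24 and −0.38 in OL. Olfr281 had 0.07, −0.16 and 0.19 in OPC and −0.38, −0.46 and −0.49 in OL. It was called below 0 in OL, while in OPC it was called on neither side (adjusted p = 0.641). The regions of Olfr286 and Olfr287 overlap, so they are not separate measurements.

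The chromosome 2 receptors, the nearest set in kind, had medians of 2.38 in OPC and 2.32 in OL, and all 288 were above 0 in both. Of these, 18 were higher and 43 lower in OL. The class I interval had medians of 2.05 and 1.895 with 121 of 124 above 0 and 1 below in either condition, and 4 higher and 41 lower in OL. None of the 288 was below 0, against 37 of the 704 members in OPC. Other regions with a mean score above 0, which are not receptors, numbered 4743 and had medians of 1.178 and 1.188, with 18.7% higher and 16.02% lower in OL. The levels of these sets were not tested against each other.

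A list of 40 genes that are not members (41 regions) was set beside the receptors. It covers odour signalling (16 regions), receptor gene choice (12), receptor transport (3) and general heterochromatin proteins (10). Of the 41 regions, 5 lay above 0 and 35 below in OPC (median −1.79), and 5 above and 36 below in OL (median −1.69). Over all regions 25.5% were above and 71.4% below 0 in OPC, and 25.9% and 70.9% in OL. A place below 0 is thus the usual one for a region. In OPC 3 of the signalling regions lay above 0 and 12 below, and 2 of the receptor choice regions above and 10 below. All 3 transport regions and all 10 heterochromatin regions lay below 0. Adcy3, the adenylyl cyclase of the odour cascade, had −1.99 in OPC and −1.92 in OL, and Omp, the olfactory marker protein, had −1.57 and −1.46. Gnal, the G protein subunit coupled to the receptors, lay close to 0 at −0.23 and −0.17. Above 0 in both conditions were Cnga2, a subunit of the odour-gated channel (0.37 and 0.81), the chloride channel gene Ano2 (1.27 and 1.26), the phosphodiesterase gene Pde1c (0.85 and 1.30), the transcription factor gene Ebf1 (0.33 and 0.48) and the adhesion gene Ncam2 (0.98 and 1.25). Among these 5, Cnga2, Pde1c and Ncam2 rose (limma adjusted p = 0.00916, 0.00143 and 0.0157).

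The 12 receptor choice regions had a median of −1.74 in OPC, against −1.54 over all regions. The receptor enhancer factors Lhx2 and Ldb1 had −2.21 and −2.25 in OPC and −2.17 and −1.95 in OL, and Kdm1a, the histone demethylase needed to start receptor expression, had −2.89 and −2.91. Lbr, the inner membrane protein that holds heterochromatin at the envelope, had −1.85 and −2.03 (limma adjusted p = 0.127). In OL 9 of the 41 regions (21.95%) were higher and 2 (4.88%) lower, where 23% and 10.9% of all regions were, so the share of rises was near that of all regions. The lower ones were Slc24a4, the exchanger of the odour response, and Ebf3, which fell by 0.59 and 0.44. With quantile normalization 5 were higher and 6 lower, so the balance of this list depends on the scaling. Without OPC library 9 or OL library 20, 4 were higher, and without OPC library 8, 5.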

How the data were processed

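Genomic DNA of the Dam-LMNB1 and Dam samples was amplified by methylation-specific PCR and sequenced, per the labels' protocols. The submitters' processing notes name cutadapt 1.9.1, BWA 0.7.17 and mm10. The authors deposited a score per region and Dam-LMNB1 library against pooled Dam, per the file headers. Its log base, and how reads of near-identical receptor copies were placed, are not given in the sources used here. Depth is unknown, so no counting interval is given. Scores were used as deposited, with differences in score units. The p-values that the authors deposited were not used. The 21534 regions entered 1 limma fit (3.58.1, R 4.3.3) that gave each condition a mean, used a variance trend and had 9.42 degrees of freedom in total. Tests were two-sided, with Benjamini-Hochberg adjustment at 0.05. The design allowed for 11 libraries and the table scores 6, so Dam alone was not analysed here. The members and lists were chosen with earlier results of these data known.

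Named were the 5 highest and 5 lowest members, and the 6 largest called rises and falls without overlap, at most 2 of a cluster in each. Also named were called members that crossed 0, the range in each cluster of 10 or more, the extreme solitary members and preset pathway genes. The non-receptor regions nearest to each end of the largest clusters were named by position. Other members and the other neighbouring genes were singled out after their values were seen. Deposited starts count from 0 and are printed from 1.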

Additional observations from a re-analysis of the deposited data

How the results depend on the processing

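The counts of members above and below 0 stayed within 1.5 times under every alternative run for them, which were 2 scalings, no variance trend, library weights, duplicate rows, overlapping members, pseudogene symbols, rows off their RefSeq gene and leaving out each library. The OPC median of 1.999 moved to 1.97 with quantile normalization and 1.98 with the libraries brought to a common mean and SD, more than the SD of the library medians. The Welch test per region, which estimates each spread from 3 libraries, called 4 members higher and 5 lower, in place of 82 and 131, and 1 and 0 pathway regions. All 14 named changes kept their direction under all 12 alternatives, and 13 of them lost their call under that test alone (Olfr473 adjusted p = 0.141), Olfr11 being the exception. Leaving out 1 library at a time gave 50 to 102 members higher, with 54 without OPC library 9 and 50 without OL library 20, and 93 to 131 lower. Of the 213 calls, 138 to 183 kept their direction and call. For the pathway list leaving out 1 library gave 4 to 7 regions higher, against 9, with 4 without OPC library 9 or OL library 20 and 5 without OPC library 8. The list had 5 higher and 6 lower with quantile normalization, 5 and 8 with a common mean and SD, and 6 lower with library weights, in which OL library 18 had the lowest weight (0.338). The cause of these moves was not tested. A gap of 0.5 or 2 Mb gave 51 or 40 clusters in place of 46. The alternatives without overlapping members and without rows off their RefSeq gene were chosen after seeing the data. No paired analysis was possible because the conditions share no library number. Depth is unknown, so what it limits could not be measured.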
